A study of Mus musculus with 182 samples.

Results

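The 10 genes Hspa5, Hsp90b1, Calr, Atp2a2, Sec62, Eif2ak3, Ern1, Atf6, Xbp1 and Ddit3 of the endoplasmic reticulum and of the unfolded protein response were followed across single germinal centre B cells, out of 17034 gene symbols in the table. They were taken by symbol and comprise the chaperones Hspa5, Hsp90b1 and Calr, the calcium pump Atp2a2, the translocation factor Sec62, the stress sensors Eif2ak3, Ern1 and Atf6, and the transcription factors Xbp1 and Ddit3. Calr, Atp2a2, Sec62 and Eif2ak3 were chosen by their rank, in earlier results on these cells, along an expression axis that holds Cxcr4 and Cd83, while the other members were added as known parts of the pathway. The data came from 182 B cells of C57BL/6 mouse spleen, sorted as B220+, Fas high and GL7 high with NP binding after magnetic removal of cells bearing CD3, CD4, CD8, CD11C or IgD, on day 13 after intraperitoneal immunisation with 100 μg NP(23)-KLH in 50% alum with 1 μg LPS. Each cell gave 1 library on the Fluidigm C1 system. All cells formed 1 group with no control, no animal is named in the labels, and the cells were treated as 1 biological sample, so no test was made and every relation across cells is a description.

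Proteins bound for the cell surface or for secretion, antibodies included, enter the endoplasmic reticulum through a channel and are folded there by chaperones in a store rich in calcium. When unfolded protein builds up, the sensors PERK, IRE1 and ATF6 in the membrane of this compartment start the unfolded protein response, which slows translation and raises the transcription of chaperones. Plasma cells are known for a large endoplasmic reticulum and for high XBP1 activity, and germinal centre B cells stand before that step.

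The columns of the table fell into 2 sets by the structure of their values, cells 1 to 96 (set 1, 96 cells) and cells 97 to 182 (set 2, 86 cells), and undetected cells stood at a lowest value that differed by gene and set, called the floor here. The number of genes above their floor was 1904 to 4492 per cell in set 1 and 980 to 5146 in set 2. The 9 germinal centre B cell markers examined were found in 45.1% to 98.9% of cells at a value of 1 or more. Of the 6 plasma cell markers, Prdm1 and Sdc1 were each found in 2 cells and Tnfrsf17 in 1, while Irf4 was in 24, Igj in 101 and Xbp1 in 46. Of 5 T cell markers, with a median share of 1.65%, Cd3d and Cd4 reached 1 in no cell and Lck did so in 54.4%. The 5 myeloid markers did so in 1.65% to 8.24%. At least 2 T cell markers were found in 8 cells, and at least 2 myeloid markers in 7. The part of other cell types in the results was not tested.

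A feature of their promoters was shared by the chaperones. Hspa5, Hsp90b1 and Calr each held the endoplasmic reticulum stress element ERSE in the 300 bases around their transcription start, which RefSeq gives as 250 bases before and 50 after it (GRCm38.p6, the assembly called mm10). The element was searched on both strands as CCAAT and CCACG with any 9 bases between them, and 0.119% of 32851 promoters held it. Hspa5 and Hsp90b1 were taken as known parts of the stress response that the element is named for. Their matches thus describe that choice and are no independent finding. Of the 8 members with a promoter in the RefSeq table, no other matched. The promoters are shown because they carry this shared element, whose fixed letters are in capitals, while on the opposite strand it reads as CGTGG before ATTGG.

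Hspa5, chr2:34771840-34772139, plus strand: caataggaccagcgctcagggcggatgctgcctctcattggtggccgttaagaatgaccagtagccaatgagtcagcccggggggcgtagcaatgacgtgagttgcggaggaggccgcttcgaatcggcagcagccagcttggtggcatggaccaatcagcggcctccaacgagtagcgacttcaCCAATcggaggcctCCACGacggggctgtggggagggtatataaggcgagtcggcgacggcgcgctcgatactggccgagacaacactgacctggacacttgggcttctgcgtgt
Hsp90b1, chr10:86705395-86705694, minus strand: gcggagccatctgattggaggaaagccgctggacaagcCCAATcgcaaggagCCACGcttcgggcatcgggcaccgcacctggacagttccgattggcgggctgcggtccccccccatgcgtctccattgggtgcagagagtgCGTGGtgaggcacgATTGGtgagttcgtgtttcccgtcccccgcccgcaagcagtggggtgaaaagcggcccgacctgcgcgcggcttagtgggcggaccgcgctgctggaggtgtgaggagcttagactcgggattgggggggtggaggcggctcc
Calr, chr8:84846882-84847181, minus strand: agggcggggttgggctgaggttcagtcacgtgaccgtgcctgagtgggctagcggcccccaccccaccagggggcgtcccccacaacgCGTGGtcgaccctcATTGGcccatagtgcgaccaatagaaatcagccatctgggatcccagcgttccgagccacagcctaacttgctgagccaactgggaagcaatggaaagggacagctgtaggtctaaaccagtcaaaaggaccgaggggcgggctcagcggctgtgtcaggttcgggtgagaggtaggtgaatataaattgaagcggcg

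The match of Hspa5 lay 47 to 65 bases before the start. Hsp90b1 held 2 matches, at 194 to 212 and, on the opposite strand, at 89 to 107 bases before it. The match of Calr lay on the opposite strand, 144 to 162 bases before the start. A match is a run of letters and not a measured binding site. ERSE-II (ATTGG and CCACG with 1 base between them, in 0.0365% of promoters) was searched the same way. So were the element UPRE (TGACGTGG, in 0.676%) and the amino acid response element (TGATGCAAT, in 0.192%). None of them matched a member with a promoter in the RefSeq table. Only these exact letters were searched, within the same window around the start. Variants of them and sites outside the window could not be found, so the members may still carry such elements.

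The 3 chaperones were the only members found in most cells. At a value of 1 or more, 3 of the 10 members were detected in over 50% of cells, where 3.79% of all 17034 genes were. Calr, calreticulin, is a lectin chaperone that also stores calcium (chromosome 8, 84841850 to 84846934). It was detected in 130 of 182 cells (71.4%, exact 95% interval 64.3 to 77.9). The lowest, median and highest values were 0, 21.2 and 2055 in set 1 and 0.266, 17.3 and 1242 in set 2. The medians were thus close between sets, and 46 cells, 23 in each set, had 100 or more. Just outside and inside the threshold, 12 cells lay between 0.5 and 1 and 6 between 1 and 2.

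Hsp90b1 encodes GRP94, the HSP90 chaperone of the compartment (chromosome 10, 86690209 to 86705509). Its transcript was detected in 125 cells (68.7%, 61.4 to 75.3), with lowest, median and highest values of 0, 5.69 and 5028 in set 1 and 0.157, 5.43 and 5328 in set 2. Of the 125 cells, 43 were at 100 or more. Hspa5 encodes BiP, the HSP70 chaperone that also holds the stress sensors inactive (chromosome 2, 34771970 to 34777547). Hspa5 was detected in 116 cells (63.7%, 56.3 to 70.7), with 0, 15.3 and 2121 in set 1 and 0.152, 4.52 and 1992 in set 2. Levels were not compared between genes, since the files do not say whether values are per length. With the threshold raised to 5, Calr was found in 62.1% of cells, Hsp90b1 in 52.2% and Hspa5 in 51.1%.

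Atp2a2 encodes SERCA2, the pump that fills the calcium store (chromosome 5, 122453513 to 122502225). Atp2a2 was detected in 41 cells (22.5%, 16.7 to 29.3), 20 of set 1 and 21 of set 2, and its median was at the floor in both sets. The highest values were 365 in set 1 and 370 in set 2, and 8 cells were at 100 or more. Its relative Atp2a3, which encodes SERCA3, was detected in 155 cells (85.2%). Sec62, which helps proteins enter through the channel after translation (chromosome 3, 30792875 to 30821263), reached 1 in 58 cells (31.9%, 25.2 to 39.2) and 257 at most. Of these 58 cells, 13 lay between 1 and 2, so its share depended on the threshold, at 15.9% for a value of 5 or more and 42.9% above the floor. The shares of other members did so too. In the same order they were 14.3% and 36.8% for Atp2a2 and 16.5% and 40.7% for Eif2ak3. For Atf6 they were 6.59% and 24.7%, and for Xbp1 13.7% and 38.5%.

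The sensors were found in fewer cells than the chaperones. Eif2ak3, which encodes PERK, the kinase that slows translation (chromosome 6, 70844515 to 70905245), was detected in 52 cells (28.6%, 22.1 to 35.7). Its highest values were 1946 in set 1 and 1799 in set 2. Atf6, a sensor that is cut to release a transcription factor (chromosome 1, 170704674 to 170867771), reached 1 in 21 cells (11.5%, 7.29 to 17.1), 10 of set 1 and 11 of set 2. Ern1, which encodes IRE1, the enzyme that splices Xbp1 RNA (chromosome 11, 106394650 to 106487852), reached 1 in 2 cells (interval 0.133% to 3.91%), at 1.87 in cell 45 and 1.68 in cell 141. Ern1 thus stayed under 2 in every cell, and it entered no summary of relations.

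Of the transcription factors, Xbp1 (chromosome 11, 5520659 to 5525893), which drives secretory genes once spliced, was detected in 46 cells (25.3%, 19.1 to 32.2). Its shares were 32.3% (23.1 to 42.6) in set 1 and 17.4% (10.1 to 27.1) in set 2, with intervals that overlap. The values do not tell spliced from unspliced Xbp1. Ddit3, which encodes CHOP, a factor of prolonged stress (chromosome 10, 127290774 to 127296288), was detected in 23 cells (12.6%, 8.18 to 18.4). Only 1 further cell had Ddit3 between 0.5 and 1, and 19 of the 23 were at 5 or more, so few cells lay near the threshold. Hsp90b1, Atp2a2, Sec62 and Eif2ak3 each overlap 1 gene on the opposite strand, and the sources used here do not say whether strand was used in quantification. Ddit3 overlaps 2 genes on the opposite strand, Gm4189 and, by 68 bases at its end, Mars, a tRNA synthetase gene. Mars was detected in 17.4% of cells with Ddit3 and 15.1% of cells without it. In the same order, the shares of Mars were 14.3% and 17.1% in set 1, and 22.2% and 13.0% in set 2.

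**Figure D1:**
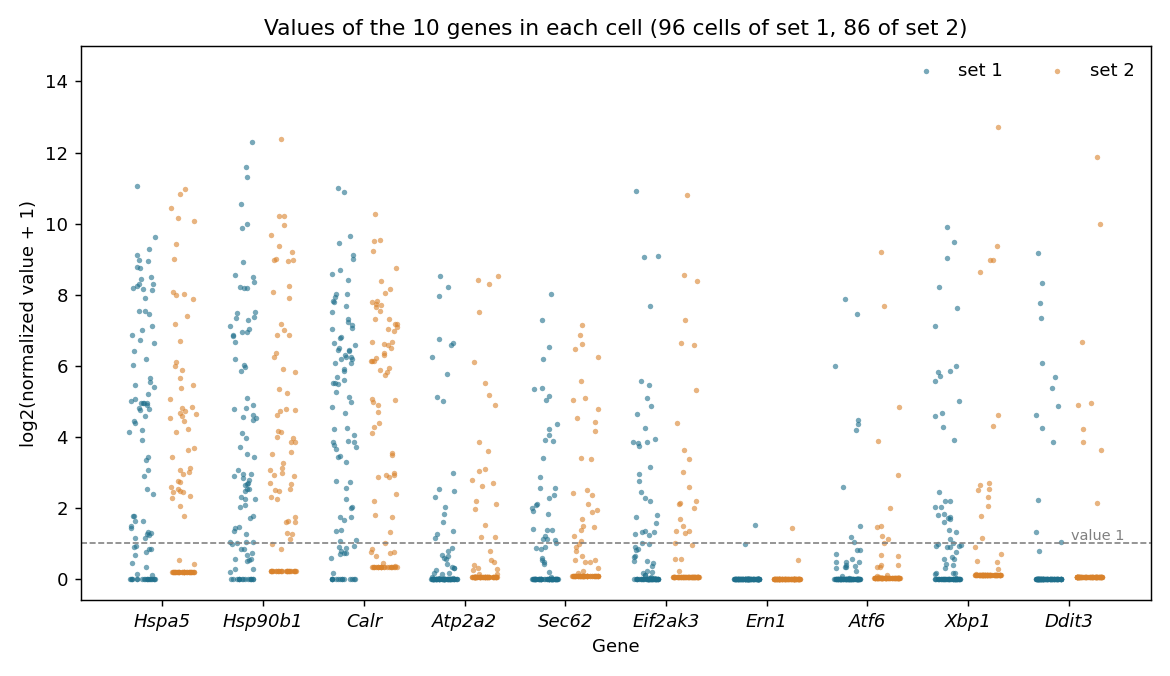
Values of the 10 genes in every cell on a log2(value + 1) scale, each point a cell, set 1 beside set 2, with a dashed line at a value of 1. Hspa5, Hsp90b1 and Calr spread over the whole scale, while the other genes pass the line in 33.3% of the cells of a set or fewer, and Ern1 passes the line in 2 cells.

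**Figure D2:**
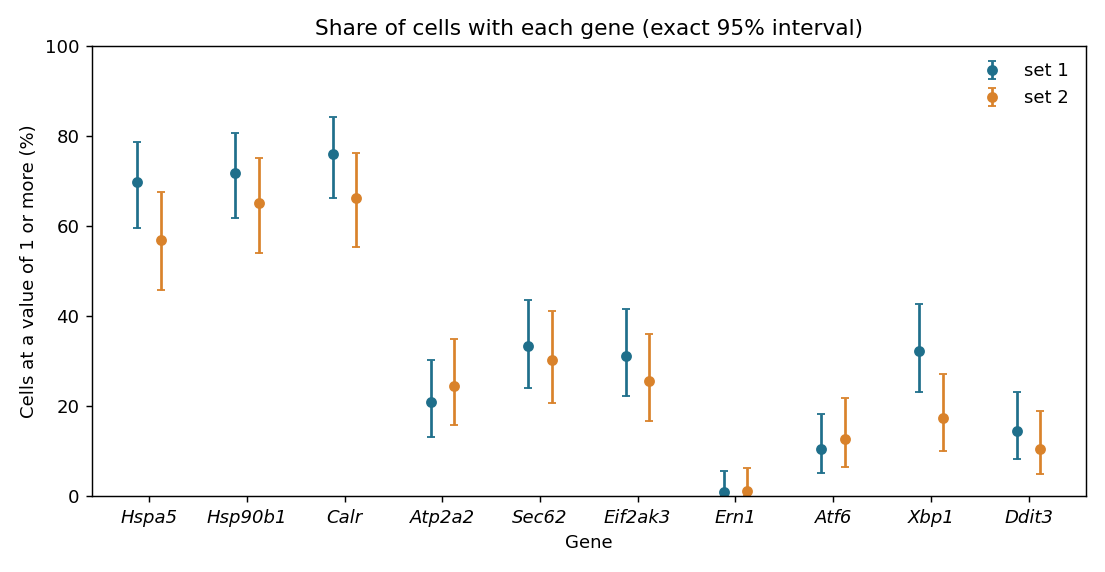
Percent of cells at a value of 1 or more for each gene in set 1 and set 2, with exact 95% intervals that cover counting error only. The 3 chaperones lie between 57.0% and 76.0% in both sets and the other genes at 33.3% or lower.

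Every cell held at least 1 member. Cells held a median of 3 members (1 to 7) of the 10, with medians of 4 in set 1 and 3 in set 2. There were 59 cells with 4 members, and 13 cells (7.14%) had 6 or more, of which 9 were in set 1. All of these 13 held Hsp90b1 and Calr, which were found in 68.7% and 71.4% of all cells. Cells picked for many members will tend to hold the common ones, so this describes the choice. The median number of genes above floor was 2310 in the 13 cells and 2416 in the rest. Within sets these medians were 2436 and 2669 in set 1, and 1600.5 and 2201 in set 2. The number of members had a rho with genes above floor of -0.16 in set 1 and -0.09 in set 2. All 3 chaperones were found together in 59 cells (32.4%, 25.7 to 39.7), where the product of their shares gives 56.9, and none of them in 9 cells, where it gives 5.91. Within sets, the 3 were together in 39 cells of set 1, where the product gives 36.6, and in 20 cells of set 2, where it gives 21.1. None of them was found in 5 cells of set 1, where it gives 1.95, and in 4 of set 2, where it gives 4.35.

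The cells with the highest values showed different members at once. Cell 23 had Hspa5 at 2121, Hsp90b1 at 5028, Calr at 554 and Eif2ak3 at 1946, with Xbp1 at 0. Cell 128 had the highest Hsp90b1, at 5328, beside Hspa5 at 1133 and Calr at 261, and it had the fewest genes above floor of all cells, 980. Cell 159 joined Eif2ak3 at 1799 with Calr at 1242 and Ddit3 at 1016, while its Hspa5 and Hsp90b1 were at the floor. Cell 164 held the highest Xbp1, at 6711, and the highest Atf6, at 586, again with Hspa5 at the floor. Cell 112 held the highest Ddit3, at 3735, with Eif2ak3 and Xbp1 at the floor. These cells were picked for their highest values, and each had other members at the floor.

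Relations between members were weak, with rho from -0.19 to 0.23 in set 1 and from -0.29 to 0.24 in set 2. Spearman's rho was taken for the 36 pairs of the 9 members detected in at least 10% of cells. Its median was 0.02 in set 1 and -0.01 in set 2, against 0.01 and 0.02 over all pairs of the 5409 genes that passed the same limit, and cells of a set share their floors and differ in the number of genes above them. Over all 182 cells the median was 0.08, against 0.04 over all pairs. The pooled values mix the sets: Atf6 with Ddit3 had 0.28 over all cells, but -0.12 in set 1 and 0.03 in set 2. Within sets, 90% of all gene pairs lay between -0.17 and 0.20 in set 1 and between -0.17 and 0.23 in set 2.

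Of the 36 pairs, 4 had a rho of at least 0.1 in both sets, where 6.71% of all pairs did. Hspa5 with Calr had 0.22 in set 1 and 0.18 in set 2. Calr was detected in 75.9% of cells with Hspa5 (88 of 116) and in 63.6% of cells without it (42 of 66), with overlapping intervals of 67.0 to 83.3 and 50.9 to 75.1. Hspa5 with Sec62 had 0.19 in set 1 and 0.11 in set 2. Atp2a2 with Eif2ak3 had 0.18 and 0.13 in the same order, and Calr with Ddit3 had 0.12 and 0.16. These are small values, and over all cells the Atp2a2 pair had 0.24 as rho and 0.02 as Pearson's r on log2(value + 1).

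Among the chaperones, the relations of Hsp90b1 differed in sign between sets. Hsp90b1 had a rho of 0.17 with Hspa5 and 0.23 with Calr in set 1, but -0.05 and -0.06 in set 2. In set 2 its share was 59.2% in cells with Hspa5 and 73.0% in cells without it. Genes above floor had a rho with Hspa5 of 0.19 in set 1 and -0.09 in set 2, and with Hsp90b1 of 0.11 and 0.14. Over all cells, Hsp90b1 had a rho of 0.09 with Hspa5 and 0.10 with Calr. With ranks regressed on set and genes above floor, these were 0.08 and 0.12. The part of depth in the relations within each set was not tested.

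Of the 36 pairs, 2 had a rho of -0.1 or lower in both sets, where 3.03% of all pairs did, and both hold Hspa5. Hspa5 with Ddit3 had -0.19 in set 1 and -0.18 in set 2. Hspa5 was detected in 8 of 23 cells with Ddit3 (34.8%, 16.4 to 57.3) and in 108 of 159 cells without it (67.9%, 60.1 to 75.1). The intervals cover counting error over cells of 1 sample, and this pair had the lowest rho of the 36 over all cells, so they show no difference beyond these cells. The shares were 35.7% with Ddit3 and 75.6% without it in set 1, and 33.3% and 59.7% in set 2, where there were 9 cells with Ddit3. Calr went the other way, with 20 cells that had both Calr and Ddit3 where the product of their shares gives 16.4. Genes above floor had a rho with Ddit3 of -0.11 in set 1 and -0.24 in set 2.

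Hspa5 with Xbp1 had -0.13 in set 1 and -0.25 in set 2. Hspa5 was detected in 23 of 46 cells with Xbp1 (50.0%, 34.9 to 65.1) and in 93 of 136 without it (68.4%, 59.9 to 76.1). Calr with Xbp1 had 0.01 in set 1 and -0.29 in set 2, where Calr was found in 7 of 15 cells with Xbp1 and in 50 of 71 without it. Beside plasma cell genes, the share of Xbp1 was 20.8% in the 24 cells with Irf4 and 25.9% in the rest. In set 1 it was 33.3% in the 9 cells with Irf4 and 32.2% in the rest. In set 2 it was 13.3% in the 15 cells with Irf4 and 18.3% in the rest. With Igj, the joining chain of IgM, the sets went opposite ways: 24.6% of cells with Igj and 43.6% without it had Xbp1 in set 1, and 18.2% and 16.7% in set 2. They also did so for Mzb1, with 30.8% of cells with it and 35.5% without it in set 1, and 19.0% and 15.9% in set 2. Of the 2 cells with Prdm1, cell 96 had 6 members, with Xbp1 at 56.7 and Hsp90b1 at 479, and cell 162 had 2, with Hspa5 at 1992 and Xbp1 at the floor.

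**Figure D3:**
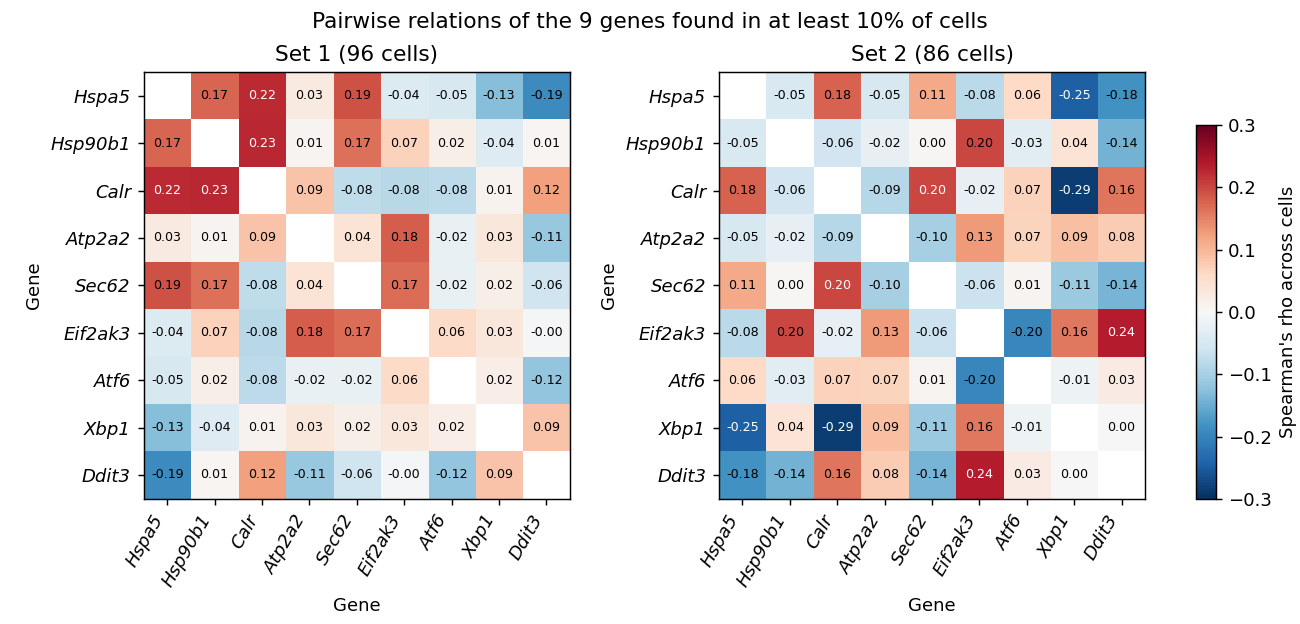
Spearman's rho across cells for each pair of the 9 genes detected in at least 10% of cells, in set 1 (left) and set 2 (right). Hspa5 is positive with Calr and negative with Xbp1 and Ddit3 in both panels, and Hsp90b1 with Calr is 0.23 in set 1 and -0.06 in set 2.

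The next question was where the members stood between cells with Cxcr4, a chemokine receptor used to mark the dark zone, and cells with Cd83, used to mark the light zone. At a value of 1 or more, 52 cells had Cxcr4 only (30 in set 1, 22 in set 2) and 53 had Cd83 only (33 and 20). The median number of genes above floor was 2632 in Cxcr4-only cells and 2398 in Cd83-only cells, and its part in these differences was not tested. Since 4 members were chosen along an axis that holds both markers, their differences describe that choice. A share was called different at 10 percentage points or more.

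Calr was the 1 member that stood at the Cd83 side over all cells, where 10.6% of the 5409 genes did. It was detected in 32 of 52 Cxcr4-only cells (61.5%, 47.0 to 74.7) and in 43 of 53 Cd83-only cells (81.1%, 68.0 to 90.6), a difference of -19.6 points. The difference was -24.5 points in set 1 and -10.9 points in set 2, and its median value was 8.47 in Cxcr4-only cells and 69.3 in Cd83-only cells. Calr was thus lower at the Cxcr4 side in both sets, with intervals that overlap.

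Sec62 was the 1 member at the Cxcr4 side, where 13.0% of the genes were. It was detected in 19 Cxcr4-only cells (36.5%, 23.6 to 51.0) and in 14 Cd83-only cells (26.4%, 15.3 to 40.3). The difference of 10.1 points came from set 1 (16.1 points, 2.27 in set 2), and it was 8.16 points without the 18 cells with the fewest genes above floor. It was 0.254 points at detection from 5, 21.7 points above the floor and 11.4 points with sides taken from a value of 5. Atp2a2 and Eif2ak3 differed by 8.13 and 8.20 points, and each was higher in Cxcr4-only cells in both sets. The direction of Atp2a2 turned at detection from 5 (-3.48 points), and its difference was 2.04 points without the 18 cells and 16.0 above the floor. Eif2ak3 differed by 14.2 points above the floor. Atp2a2 had a rho with Cd83 of -0.23 in set 1 and -0.14 in set 2, and with Cxcr4 of 0.00 and 0.05.

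The other members, which that axis did not choose, stood at neither side over all cells at a value of 1 or more. Hspa5 was detected in 67.3% of Cxcr4-only cells and 67.9% of Cd83-only cells. Its median value over all cells was 4.38 in Cxcr4-only cells and 16.7 in Cd83-only cells, but the sets went opposite ways. In the same order, its medians were 2.12 and 29.8 in set 1, and 8.212 and 4.498 in set 2. Its share differed by -2.73 points in set 1 and 3.64 points in set 2. At detection from 5 over all cells, Hspa5 differed by -12.3 points and stood at the Cd83 side. That difference was not taken within each set. Hsp90b1 was detected in 65.4% of Cxcr4-only cells and 64.2% of Cd83-only cells. This hides opposite differences: -15.8 points in set 1 and 27.7 points in set 2. In set 2 it was found in 16 of 22 Cxcr4-only cells (72.7%, 49.8 to 89.3) and in 9 of 20 Cd83-only cells (45.0%, 23.1 to 68.5). Within set 1, Sec62 stood at the Cxcr4 side, where 19.2% of genes did, and Hsp90b1 and Calr at the Cd83 side, where 15.9% did. Within set 2, Hsp90b1 and Atp2a2 stood at the Cxcr4 side, where 23.2% of genes did, and Calr at the Cd83 side, where 20.6% did. Xbp1 differed by -5.30 points over all cells, and by 6.42 above the floor, Ddit3 by -3.59 and Atf6 by 2.14. Ern1 was detected in 0 of 52 Cxcr4-only and 0 of 53 Cd83-only cells.

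**Figure D4:**
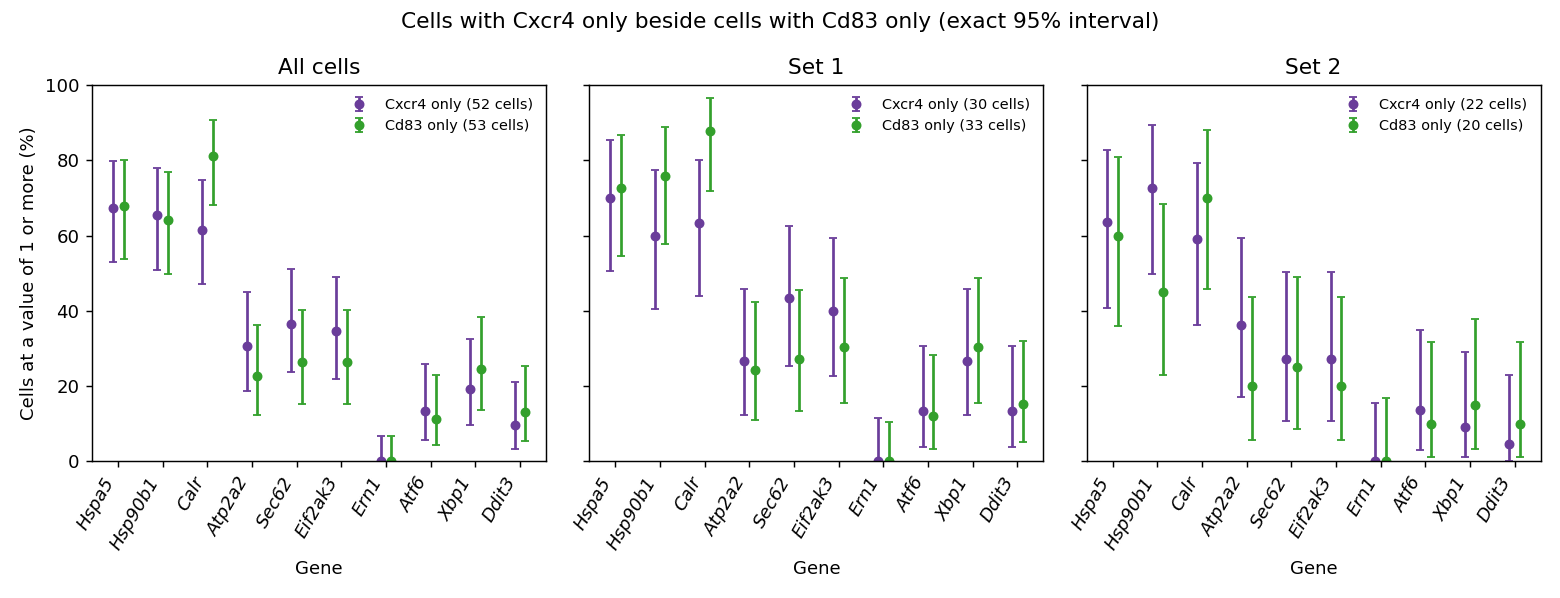
Percent of cells at a value of 1 or more for each gene in cells with Cxcr4 only and in cells with Cd83 only, over all cells and within each set, with exact 95% intervals. Calr is lower in Cxcr4-only cells in each panel, and Hsp90b1 changes sides between set 1 and set 2.

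Ighm, the heavy chain of IgM, is a cargo that these chaperones fold (chromosome 12, 113418558 to 113422730). Ighm was detected in 165 cells (90.7%), with a median value of 184 in set 1 and 108 in set 2. The members had a median rho with Ighm of -0.02 in set 1 and 0.03 in set 2, where all genes detected in at least 10% of cells had -0.02 and -0.03. Over all cells, 0 of the 9 members had a rho of at least 0.1, where 7.05% of genes did, and 0 had -0.1 or lower, where 19.7% did. Within set 1, Atf6 reached 0.1 (13.8% of genes) and Calr -0.1 (22.3% of genes). Within set 2, Sec62 and Ddit3 reached 0.1 (12.5% of genes) and Atp2a2 -0.1 (26.4% of genes), so no member passed in the same direction in both sets.

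Calr had -0.21 with Ighm in set 1 and 0.03 in set 2, and Hspa5 had -0.06 and -0.09. Ddit3 had -0.02 in set 1 and 0.27 in set 2, where the median Ighm was 553 in the 9 cells with Ddit3 and 92.3 in the 77 without it. Sec62 had 0.00 and 0.19. The median Ighm was 215 in the 58 cells with Sec62 and 109 in the 124 without it, with 212 against 154 in set 1 and 215 against 54.6 in set 2. Genes above floor had a rho with Sec62 of 0.17 in set 2.

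For 5 other cargo genes, Igj, Cd74 (the invariant chain), Cd79a and Cd79b (chains of the B cell receptor) and H2-Aa (an MHC class II chain), there were 45 pairs with the 9 members. Of these, 3 had a rho of -0.1 or lower in both sets, where 3.86% of all pairs of a gene with these cargo genes did, and 1 had at least 0.1, where 8.21% did. Calr with Cd79a had -0.30 in set 1 and -0.22 in set 2, below the 5th percentile of all genes in both (-0.21 and -0.18). Calr with Cd79b had -0.13 and -0.25, and Hsp90b1 with Igj had -0.10 and -0.13. Eif2ak3 with Cd79b had 0.19 in set 1 and 0.18 in set 2. Genes above floor had a rho with Calr of -0.09 in set 1 and -0.14 in set 2, and the part of depth in these pairs was not tested.

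**Figure D5:**
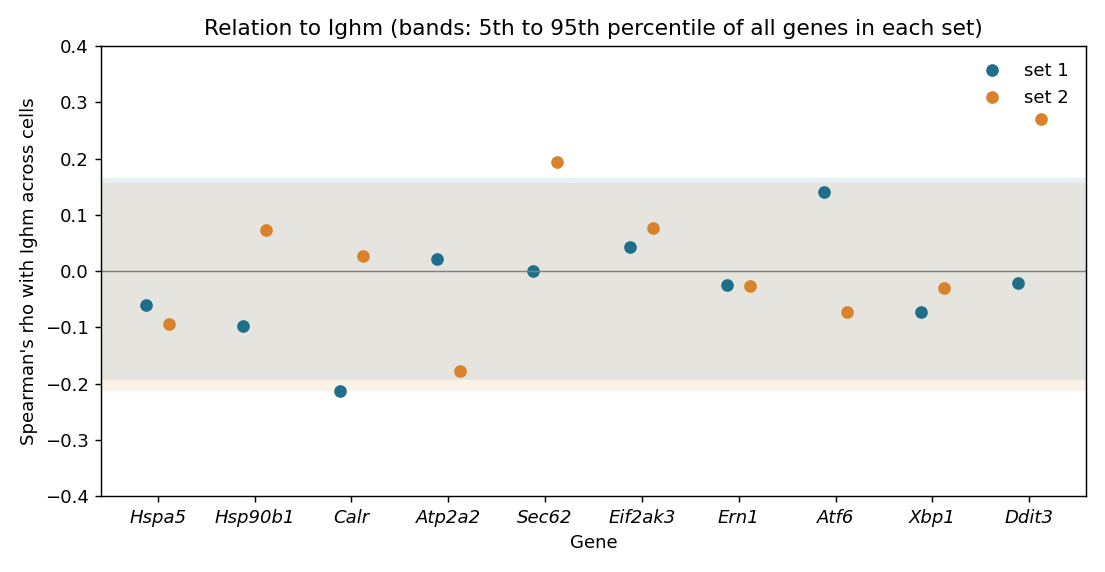
Spearman's rho of each gene with Ighm across cells in set 1 and set 2, with bands from the 5th to the 95th percentile of all genes detected in at least 10% of cells. Most points lie inside the bands, Calr lies below in set 1 and Ddit3 and Sec62 lie above in set 2.

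Other genes of the compartment were taken from lists by role. Of 93 such genes in the table outside the 10 members, 8 were detected in over 50% of cells, where 3.79% of all 17034 genes were. Among chaperones these were Canx, calnexin, the membrane partner of calreticulin (133 cells, 73.1%), and Mzb1, a B cell cofactor of GRP94 (107 cells, 58.8%). In the degradation list they were Herpud1 (157 cells, 86.3%), Syvn1, the ubiquitin ligase HRD1 (117 cells, 64.3%), and Vcp, the ATPase that pulls proteins out (114 cells, 62.6%). Tram1, a helper of the channel, was detected in 117 cells (64.3%) and Atf4, the factor made when PERK or its sister kinases act, in 135 (74.2%). The remaining one was Atp2a3, given above.

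Of the 9 targets of the PERK branch in the table, 7 were detected in under 10% of cells, as were 68.2% of all genes, so this count lay near the background. Among them were Trib3 in 3 cells and Asns, asparagine synthetase, in 5. Above 10% were Ppp1r15a (GADD34, 44 cells, 24.2%) and Ppp1r15b (42 cells, 23.1%), which bring the phosphatase that ends the block of translation. Ddit3 was detected in 12.6% of the 135 cells with Atf4 and in 12.8% of the 47 without it. The 12 genes of N-glycosylation were each found in 19.8% to 42.3% of cells, led by Stt3b, a catalytic subunit of the oligosaccharyl transferase. The translocation list had a median share of 24.7% over 23 genes, with the signal recognition genes Srp19 (42.9%) and Srp72 (37.4%) and the signal peptidase gene Sec11c (41.8%) after Tram1.

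Of the 73 of these genes that were found in at least 10% of cells, 9 were 10 points or more higher in Cxcr4-only cells and 6 in Cd83-only cells, close to the background shares of 13.0% and 10.6%. Of the 73, 2 stood at the Cxcr4 side over all cells and in both sets, where 5.55% of the 5409 genes did, and 2 at the Cd83 side, where 3.75% did. Neither count exceeded these background shares. Dnajb11, a BiP cochaperone, differed by -22.3 points over all cells (-27.9 in set 1, -10.9 in set 2), and Pdia6, a disulfide isomerase, by -20.2 (-14.5 and -25.9), the same side as Calr. Ero1lb, an oxidase that feeds disulfide bonds, differed by 19.7 points (22.1 and 15.5), and Sec11c by 16.1 (10.0 and 23.6). Pdia6 held an ERSE in its promoter and Dnajb11 an ERSE-II. Of the other listed genes outside the members with an ERSE, Dnajc3 differed by -14.9 points (-20.0 in set 1, -5.91 in set 2), Canx by -4.35 (-15.5 and 12.3), Syvn1 by 3.16 (-9.39 and 22.7), Creld2 by -5.52 (-8.79 and -1.36) and Derl3, found in under 10% of cells, by -1.78 (-12.1 and 13.6). Of those with an ERSE-II, Krtcap2 differed by 12.0 points (6.36 and 20.9) and Herpud1 by -0.25 (1.82 and -3.64). A link between these elements and the differences was not tested.

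The genes most like each member were ranked by the lower of their rho values in set 1 and set 2, over 4638 genes detected in at least 10% of cells of each set. For Calr these were Rpsa, a ribosomal protein gene (0.41 and 0.30), and Rn45s, the ribosomal RNA precursor (0.29 and 0.30). For Ddit3 they were Atm, a kinase of the response to DNA breaks (0.28 and 0.29), and Klf6, a transcription factor (0.44 and 0.27). For Eif2ak3 they were Leng8 (0.35 and 0.28) and Xiap, an inhibitor of caspases (0.24 and 0.25). Hsp90b1 was nearest to Arid3a, a B cell transcription factor (0.28 and 0.28), and Hspa5 to the kinase gene Jak3 (0.26 and 0.28). Sec62 was nearest to the translation gene Eif4g2 (0.26 and 0.29), Atp2a2 to the adaptor gene Lax1 (0.25 and 0.26), Xbp1 to the polymerase gene Polr1c (0.24 and 0.24) and Atf6 to Cnp (0.28 and 0.27). Each is the highest or next highest of 4638 values, from cells that share their set's floors.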

How the data were processed

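The table holds 1 normalized signal value per gene and cell, not on a log scale, as deposited by the authors; per the submitters' processing notes TopHat2 2.0, Cufflinks 2.2, Cuffdiff and mm10 were used, and how values were normalized, or which annotation was used, is not given in the sources used here. These values are not counts, so the read depth of a cell is unknown. The table has 17035 rows. After 1 row that repeats a date was dropped, 20 of the 17034 left hold dates in place of symbols. Cell numbers are those of the column names. No 2 columns were identical. A gene was called detected at a value of at least 1. Shares have exact Clopper-Pearson 95% intervals for counting error over cells only. Spearman's rho was taken across cells, and no p-value was computed, because the cells are 1 sample. The sets of columns were found from the values. Code was tested on simulated data. Alternatives were detection at 5 or above the floor, each set alone, leaving out 18 cells with few genes, ranks within sets, adjustment for depth and set, Pearson's r with pseudocounts of 0.1, 1 and 10, no filter, and other side definitions. Members and lists were chosen with earlier results of these data known. Genes were named by list share, by side in both sets or by likeness; cells were named for their highest values, and Mars, the cargo pairs and the listed genes with an ERSE or ERSE-II were chosen after values were seen. Of the cargo and other lists, 3 genes (Igkc, Chac1 and Cd3g) had no row and were not analysed here. Python 3.11.15, numpy 2.4.6, scipy 1.17.1 and pandas 2.3.3 were used.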

Additional observations from a re-analysis of the deposited data

How the results depend on the processing

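The 3 members found in over 50% of cells numbered 3 under each alternative run, and the median number of members per cell was 2 to 4. The count at the Cd83 side was 2 instead of 1 in set 1 alone, at detection from 5 and at a 5-point limit; Calr was joined by Hsp90b1, by Hspa5 and by Xbp1 in that order. The count at the Cxcr4 side, 1 in the report, was 2 in set 2 alone, 3 above the floor, 3 at a 5-point limit, 0 at detection from 5 and 0 without the 18 cells with the fewest genes above floor. Of 103 pathway genes with members, 11 were in over 50% of cells, where 3.79% of all 17034 genes were. This count was 23 above the floor and 6 at detection from 5. The median rho over member pairs lay between -0.01 and 0.08, and that with Ighm between -0.03 and 0.03. Atf6 with Ddit3, 0.28 over all cells, reversed to -0.12 in set 1 alone, -0.058 with ranks within sets, -0.098 with ranks regressed on set and genes above floor, and -0.00097 as Pearson's r on log2(value + 10). Other single values were counted once for each gene or pair under each alternative run. So counted, 18 share values moved beyond the main interval and 32 did not. Of the side differences, 6 moved by 10 points or more and 54 did not, and 26 rho values moved by 0.1 or more and 130 did not. The cause was not tested. No paired analysis was possible because there was 1 group. Depth is unknown, so a gene at its floor may still be expressed.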
